A study of Mus musculus with 60 samples.

Results

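The genes described here are the 4 adult hemoglobin genes of the mouse, Hbb-bs, Hbb-bt, Hba-a1 and Hba-a2, together with Alas2, which encodes the enzyme that starts heme synthesis in red cell precursors. They are 5 of the 18088 genes in the table. They were selected on their measured lithium minus vehicle difference, which was positive in these same libraries, so every lithium minus vehicle value below is a description and carries no test. RNA was sequenced from the prefrontal cortex of 60 C57BL/6J mice in 12 groups of 5. Each group is 1 combination of genotype (wild type, WT, or Chd8+/N2373K heterozygous, Het), treatment (vehicle, fluoxetine or lithium) and sex. Chd8 encodes a chromatin remodeler, fluoxetine blocks serotonin reuptake, and lithium is a mood stabilizer. Dosing went through the nursing dam: pups took the drug up with milk for 3 weeks (postnatal days 3 to 24), and brains were sampled on postnatal day 25. Neither the dose that reached each pup, nor its litter, nor any flushing of blood from the vessels is given in the sources used here. Pups of a group may share a mother, so a p-value here reflects library-to-library spread only.

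Hemoglobin carries oxygen in red blood cells and is built from alpha and beta globin chains, each holding a heme group. Mature mouse red cells have no nucleus and make no new RNA, while reticulocytes, the young red cells that enter the blood, still carry large amounts of globin mRNA and some Alas2 mRNA. In brain tissue these transcripts are known chiefly as a sign of blood in the vessels, although low globin expression in neurons and glia has also been described.

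Both beta genes lie on chromosome 7 and both alpha genes on chromosome 11 (GENCODE M21 on GRCm38, all protein-coding). Hbb-bs (ENSMUSG00000052305) spans chr7:103826534-103828096 on the minus strand and Hbb-bt (ENSMUSG00000073940) spans chr7:103812524-103813996 on the minus strand. Hba-a1 (ENSMUSG00000069919) spans chr11:32283511-32284465 and Hba-a2 (ENSMUSG00000069917) spans chr11:32296489-32297298, both on the plus strand. Each globin gene has 3 exons. Alas2 (ENSMUSG00000025270) has 11 exons at chrX:150547375-150570638 on the plus strand.

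The copies within each pair are so alike that their separate values are uncertain. The coding sequences of Hbb-bs and Hbb-bt (441 bases) differed at 1 base, and those of Hba-a1 and Hba-a2 (426 bases) also at 1 base, an identity of 99.8% in each pair. Whole transcripts differed more: 66.9% of the 31-base words of Hbb-bs also occurred in Hbb-bt, and 91.0% of those of Hba-a2 also occurred in Hba-a1. No such word was shared between a beta and an alpha gene, or between Alas2 and any of the 4 globin genes. How reads were divided between copies is not given in the sources used here. The coding stretches that hold the differing base, shown in capitals, run from coding base 358 to 417 in the beta pair and from 351 to 410 in the alpha pair.

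Hbb-bs: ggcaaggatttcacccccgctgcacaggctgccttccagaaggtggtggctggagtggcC
Hbb-bt: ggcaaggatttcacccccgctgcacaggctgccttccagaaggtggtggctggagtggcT
Hba-a1: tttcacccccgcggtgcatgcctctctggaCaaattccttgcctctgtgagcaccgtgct
Hba-a2: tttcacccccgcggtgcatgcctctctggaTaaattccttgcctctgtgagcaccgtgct

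The promoters of the 5 genes, which lie on 3 chromosomes, are shown as background. Whether promoter sequence relates to how the genes varied across libraries was not tested. Each window is the 250 bases before the RefSeq transcription start (GRCm38.p6), 5′ to 3′ on the gene's strand, with matches to 4 motifs of 5 letters on either strand in capitals: GATAA (the site read by GATA factors), CACCC (the site read by erythroid Kruppel-like factors), CCAAT and TATAA. The window of Hbb-bs is chr7:103827929-103828178, that of Hbb-bt chr7:103813924-103814173, that of Hba-a2 chr11:32296242-32296491 and that of Alas2 chrX:150547167-150547416. The window of Hba-a1, chr11:32283422-32283671, held the same bases shifted by 3.

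Hbb-bs: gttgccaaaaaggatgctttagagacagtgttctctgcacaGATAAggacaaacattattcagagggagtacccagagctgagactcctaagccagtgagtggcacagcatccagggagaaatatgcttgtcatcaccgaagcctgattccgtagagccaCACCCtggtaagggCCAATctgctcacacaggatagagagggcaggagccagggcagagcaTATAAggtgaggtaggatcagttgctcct
Hbb-bt: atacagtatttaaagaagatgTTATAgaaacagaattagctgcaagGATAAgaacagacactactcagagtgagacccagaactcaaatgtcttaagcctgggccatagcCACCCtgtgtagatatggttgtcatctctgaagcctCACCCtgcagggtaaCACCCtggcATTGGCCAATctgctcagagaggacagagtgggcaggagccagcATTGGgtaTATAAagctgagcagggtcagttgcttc
Hba-a2: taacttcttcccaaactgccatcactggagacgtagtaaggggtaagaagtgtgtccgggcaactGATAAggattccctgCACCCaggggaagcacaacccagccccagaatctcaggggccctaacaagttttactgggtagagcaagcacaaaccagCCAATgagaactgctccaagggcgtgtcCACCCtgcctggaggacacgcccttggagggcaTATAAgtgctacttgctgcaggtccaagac
Alas2: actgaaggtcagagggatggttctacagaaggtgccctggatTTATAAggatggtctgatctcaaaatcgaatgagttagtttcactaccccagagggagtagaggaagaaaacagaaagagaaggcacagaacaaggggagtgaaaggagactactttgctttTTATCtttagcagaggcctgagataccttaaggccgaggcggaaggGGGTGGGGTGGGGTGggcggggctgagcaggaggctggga

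GATAA and CACCC each occurred in 5 of 5 windows, against 22.6% and 52.0% of the 32851 promoter windows of all genes. Both occurred together in 10.1% of those windows. CCAAT was in 4 of 5 (33.8% of all windows) and TATAA in 5 of 5 (22.8%). The 4 globin windows held all 4 motifs, as did 0.968% of all windows. The 4 globin genes had TATAA between 30 and 27 bases before the start, whereas in Alas2 it lay more than 200 bases before it and CACCC occurred 3 times in a row on the opposite strand (GGGTGGGGTGGGGTG). The Hbb-bt window carried 2 adjoining CCAAT matches, 1 on each strand (ATTGGCCAAT). The Hba-a1 and Hba-a2 windows hold the same bases apart from a shift, so these counts of windows are not of independent sequences. A match describes the letters and shows no binding.

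The libraries held 24.05 to 31.65 M reads (median 28.32 M), and the 4 globin genes took 0.011% to 0.051% of them (median 0.0235%). Chd8 itself averaged 3094 ± 91.7 normalized counts in the 30 WT libraries and 2671 ± 134 in the 30 Het libraries (SD), with 1 Het library above the lowest WT library. All 10 cortical neuron markers looked up, among them Slc17a7 and Camk2a, had a row, with summed levels of 216154 to 313290 normalized counts in vehicle libraries. Markers of the neighboring olfactory bulb varied widely, from 28054 to 98258 summed normalized counts in vehicle libraries, 30225 to 66464 with fluoxetine and 31936 to 74819 with lithium. Tbr1 counts in both of these sums. Several values are therefore also given without the 16 libraries rich in olfactory bulb markers. These were picked by a narrower score, the mean of Sp8, Eomes, Cdhr1, Th and Doc2g, and not by the sum of all markers.

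Of 32 red cell and reticulocyte markers looked up, 20 had a row, and these were mainly genes that brain cells also express. The other 12, among them the membrane genes Rhag and Epb42 and the globin chaperone Ahsp, had no row in the table used here, nor did the erythroid transcription factors Gata1, Klf1, Nfe2 and Gfi1b. Slc4a1, the anion exchanger of the red cell membrane, had 8.09 normalized counts on average (0 to 29.1). Gypc and Ermap, also genes of the red cell membrane, averaged 91.4 and 20.7 normalized counts and followed the globins less than Slc4a1 did (values below). The erythroid label therefore rests on the globin genes and Alas2, with Slc4a1 at very low counts.

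Among the 5 genes the beta gene Hbb-bs was the most abundant and Alas2 the least. Mean normalized counts over 60 libraries were 3290.2 for Hbb-bs, 2269 for Hba-a2, 1598 for Hba-a1, 465 for Hbb-bt and 130.2 for Alas2. Divided by transcript length, the level was 5239 per kb for Hbb-bs, 4096 for Hba-a2, 2286 for Hba-a1, 662 for Hbb-bt and 63.9 for Alas2. That order was the same on both scales.

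When the 20 libraries of each treatment were pooled, the mean of every gene was lowest with vehicle, intermediate with fluoxetine and highest with lithium. Females did not follow that order for every gene: fluoxetine minus vehicle on the log2 scale was −0.25 for Hba-a1, −0.10 for Hba-a2 and −0.04 for Hbb-bt in Het females, and −0.07 for Hbb-bt and −0.02 for Hba-a1 in WT females. Hbb-bs stood at 2371 ± 672 normalized counts with vehicle, 3216 ± 1162 with fluoxetine and 4283 ± 1383 with lithium (SD, n = 20 each). Alas2 stood at 92.0 ± 28.3, 135 ± 58.4 and 163 ± 58.7 in the same order. The other means were 359, 433 and 603 for Hbb-bt, 1282, 1458 and 2053 for Hba-a1, and 1760.5, 2102 and 2946 for Hba-a2. Among the 12 groups Hbb-bs ran from 4633 ± 1315 (SD, n = 5) in WT lithium males down to 2045 ± 1016 in Het vehicle males, and Alas2 from 178 ± 53.4 to 69.2 ± 36.7 in the same pair of groups. The 4 lithium groups held the highest 4 places for each of the 4 globin genes. For Alas2, WT fluoxetine males held place 3 (161 ± 56.6) and Het fluoxetine males place 5 (152 ± 89.6), ahead of Het lithium females (146 ± 51.1). In that order each group lay within the larger SD of its neighbor, for 11 of 11 neighboring pairs and for each of the 5 genes, so neighbors did not differ beyond their spread. The plot of all 60 libraries shows this order and the spread within groups.

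**Figure D1:**
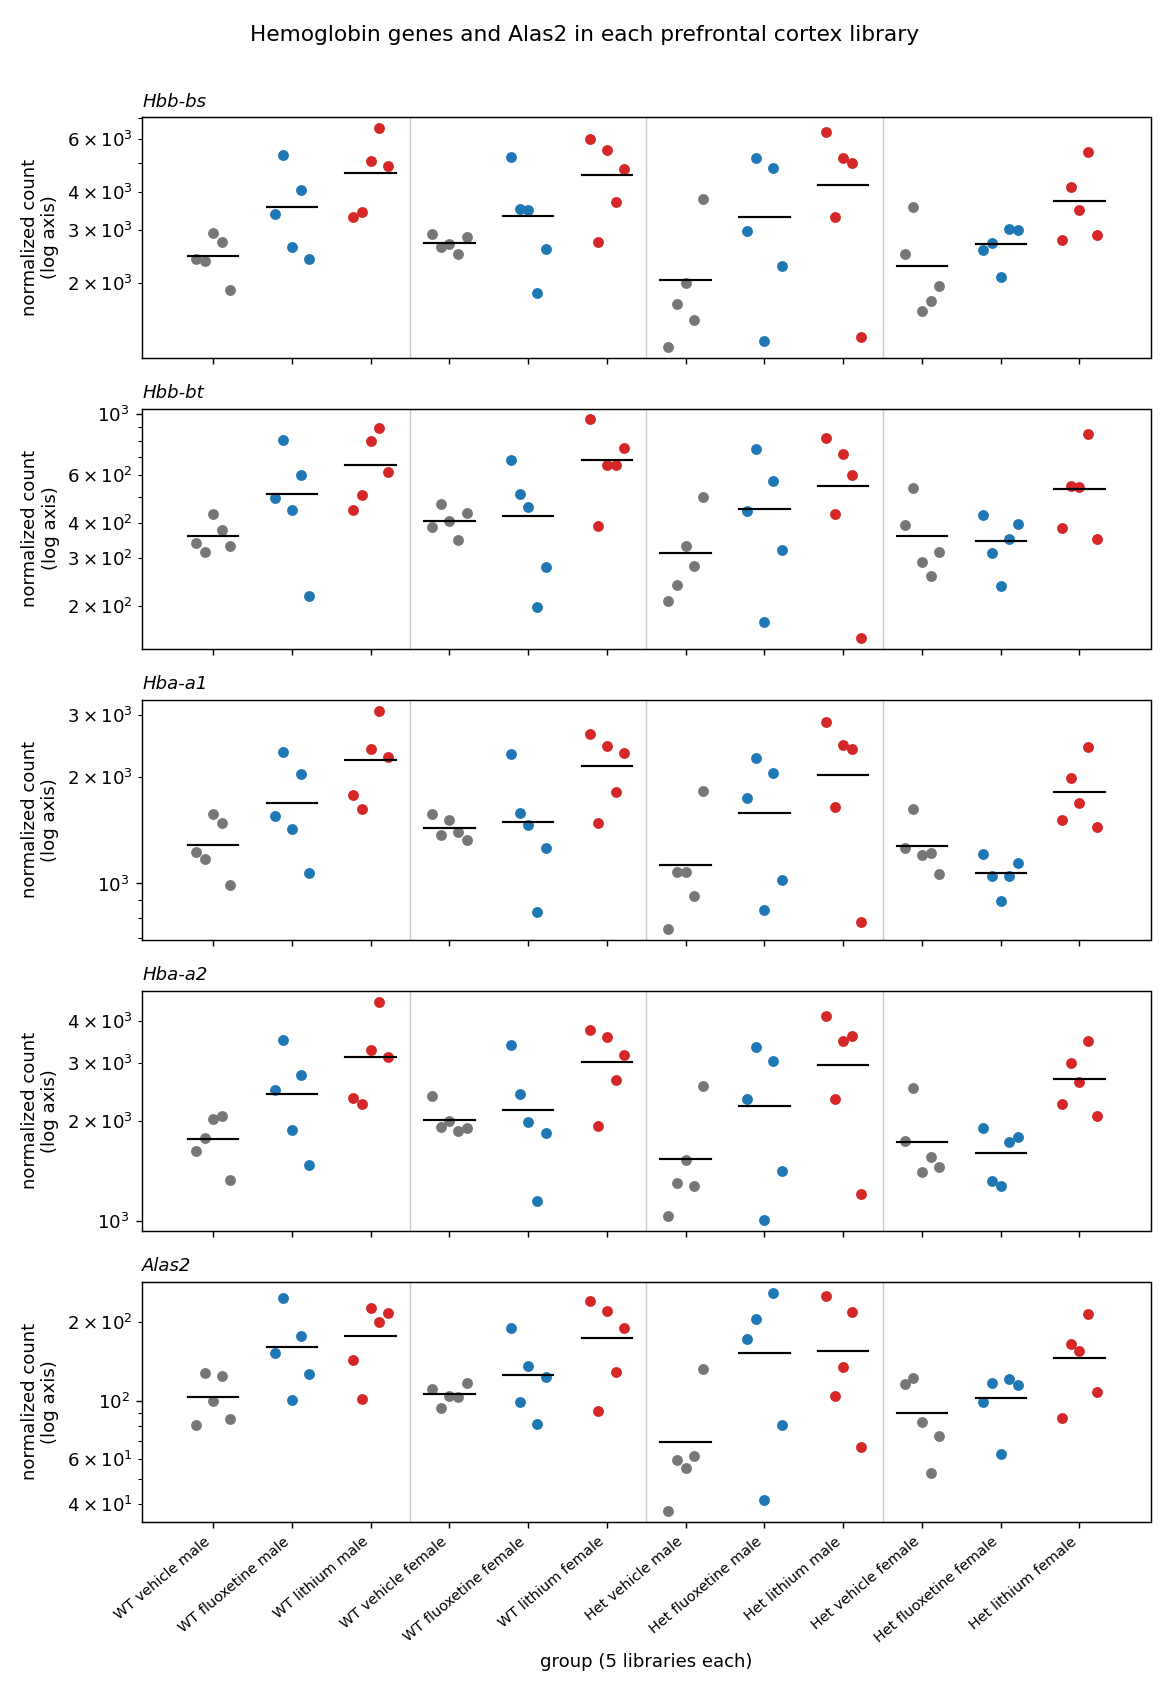
Normalized count (log axis) of each of the 5 genes in every library, by genotype, sex and treatment, with 5 libraries per group, vehicle in grey, fluoxetine in blue and lithium in red, and a black line at each group mean. Libraries of WT vehicle females lie close together, and Het lithium males include 1 library (Hbb-bs 1323) near the vehicle level.

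The mean of each of the 5 genes was higher with lithium than with vehicle in every genotype and sex, although single libraries overlapped in most pairs of groups. In WT vehicle males Hbb-bs read 1900.3, 2368, 2396, 2720.4 and 2913 normalized counts, and in WT lithium males 3311, 3419.9, 4887, 5055 and 6490.2. All 5 lithium values lay above all 5 vehicle values. In WT females the vehicle values were 2492, 2618, 2688, 2843 and 2906 and the lithium values 2731, 3694, 4764, 5516 and 5987, so 4 of 5 lithium libraries lay above the vehicle range.

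In Het males vehicle values of Hbb-bs were 1229, 1505, 1702, 1996 and 3791 and lithium values 1323, 3299.9, 4983, 5169 and 6322. Here both groups overlapped because of 1 high vehicle library (replicate 5) and 1 low lithium library (replicate 5). Whether those replicate numbers link the mice is not given in the sources used here. In Het females vehicle values were 1610.0, 1740.2, 1947, 2494 and 3568 and lithium values 2766, 2869, 3495, 4149 and 5423, so 2 of 5 lithium libraries lay above the vehicle range and all 5 above the vehicle mean.

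The alpha gene Hba-a2 followed the same libraries. In WT males it read 1324, 1619, 1779, 2023 and 2069 with vehicle and 2255, 2342, 3118, 3289 and 4589 with lithium, again without overlap. In Het males it read 1032, 1269.6, 1297, 1523 and 2546 with vehicle and 1204, 2335, 3498, 3617 and 4145 with lithium, and the low lithium library was the one that was low in Hbb-bs. Hba-a1 and Hbb-bt also separated completely in WT males, with Hba-a1 at 989 to 1568 against 1620.3 to 3078 and Hbb-bt at 315 to 431 against 449 to 890.2.

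Alas2, measured at far lower counts, overlapped in every pair of groups. In WT males it read 81.0, 85.0, 99.5, 124 and 128 with vehicle and 102, 143, 200.2, 217 and 227 with lithium. In Het males it read 37.7, 55.1, 59.1, 61.2 and 133 with vehicle and 66.5, 105, 134, 219 and 252 with lithium. Vehicle replicate 5 was again the highest Het vehicle male, and lithium replicate 5 the lowest Het lithium male.

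Thus 4 of the 5 genes, the globins, had no overlap between lithium and vehicle in WT males, where 1.86% of all 17807 genes tested were higher without overlap and 0.0786% were called by limma. In the other 3 pairs of groups 0 of 5 genes separated completely. These counts use the contrast that chose the genes and are given as description only.

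As log2 differences of (normalized count + 1), lithium minus vehicle averaged over the 4 pairs of groups was 0.82 ± 0.16 (SE) for Hbb-bs, 0.80 ± 0.18 for Alas2, 0.72 ± 0.14 for Hba-a2, 0.68 ± 0.17 for Hbb-bt and 0.65 ± 0.13 for Hba-a1. These are folds of 1.77, 1.74, 1.65, 1.60 and 1.57. Among all 17807 genes, ordered from the most raised, they took places 16, 19, 28, 36 and 45. In this average 19.1% of all genes were called, and within single pairs 0.118% among WT females, 0.629% among Het females and 2% among Het males. Averaged over both sexes 2.97% were called in WT and 9.14% in Het mice.

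Both genotypes gave similar sizes. Hbb-bs differed by 0.79 ± 0.22 in WT and 0.86 ± 0.22 in Het mice as averages over both sexes, Hba-a2 by 0.67 ± 0.20 and 0.77 ± 0.20, Hba-a1 by 0.66 ± 0.18 and 0.63 ± 0.18, Hbb-bt by 0.75 ± 0.24 and 0.61 ± 0.24, and Alas2 by 0.69 ± 0.25 and 0.91 ± 0.25. Het minus WT differences of these lithium values ran from −0.14 (Hbb-bt) to 0.22 (Alas2), with standard errors of 0.26 to 0.35. In males the values ran from 0.67 to 1.12 and in females from 0.49 to 0.74.

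Among Het males the size depended on single libraries. The median over the 5 genes was 0.90 there, 1.189 without lithium replicate 5 and 0.74 without lithium replicate 1, which was the highest library of that group for all 5 genes. With the 16 libraries rich in olfactory bulb markers left out, which leaves 2 Het vehicle males (replicates 3 and 5) and 4 Het lithium males, it was 0.24. In the other 3 pairs of groups the same omission left medians of 0.75 to 0.80. In bulk tissue a difference in the number of red cells and a difference in the RNA per red cell cannot be told apart.

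Fluoxetine was compared with the same vehicle libraries, so its values share the controls of the contrast that chose the genes. Low values in those controls would raise both differences. All p-values of fluoxetine against vehicle for the 5 genes are therefore not independent of the choice and can be too small. In Het males, where a member was called, Alas2 read 41.7, 80.8, 172, 206 and 259 normalized counts with fluoxetine against 37.7, 55.1, 59.1, 61.2 and 133 with vehicle. With fluoxetine 3 libraries lay above all vehicle libraries and 2 within their range. The log2 difference was 0.98 ± 0.35, a fold of 1.97 (limma, adjusted p = 0.0363), and 4 of 5 fluoxetine libraries lay above the vehicle mean. In that comparison 1 of 5 genes was called, against 22.7% of all genes.

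The Alas2 call in Het males rested on most of its single libraries. It was lost without any 1 of Het fluoxetine male replicates 1, 2 and 4 or Het vehicle male replicates 1, 2, 3 and 4 (limma, adjusted p = 0.0600 to 0.155). With only the groups compared in the fit it was also lost (limma, adjusted p = 0.214). Leaving out the 16 libraries rich in olfactory bulb markers gave 0.52 for Alas2 (limma, adjusted p = 0.601) and moved Hbb-bs from 0.63 to −0.06 (limma, adjusted p = 0.956), with 3 fluoxetine and 2 vehicle males left. Conversely, Hbb-bs passed as well without fluoxetine replicate 3 (0.93, limma, adjusted p = 0.0402) or without vehicle replicate 5 (0.89, limma, adjusted p = 0.0388).

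Averaged over the 4 pairs of groups, 2 of the 5 genes were higher with fluoxetine, where 33.6% of all genes were called and 17.6% were called higher. Alas2 rose by 0.50 ± 0.18 (fold 1.41, limma, adjusted p = 0.0236) and Hbb-bs by 0.41 ± 0.16 (fold 1.32, limma, adjusted p = 0.0407). Hba-a2 differed by 0.20 ± 0.14, Hbb-bt by 0.18 ± 0.17 and Hba-a1 by 0.13 ± 0.13 (limma, adjusted p = 0.277 to 0.443), with 95% intervals from −0.16 to 0.53 at the widest. The Hbb-bs call was lost without any 1 of 17 of the 40 libraries (limma, adjusted p = 0.0514 to 0.0727). With fluoxetine these were WT male replicates 2 and 4, WT female replicates 1, 2 and 3, Het male replicates 2 and 4 and Het female replicates 4 and 5, and with vehicle WT male replicate 5, WT female replicate 4, Het male replicates 1, 2 and 4 and Het female replicates 3, 4 and 5. The Alas2 call was kept without any 1 of the 40 (limma, adjusted p = 0.00366 to 0.0482). With both beta copies summed the beta difference was 0.38 (limma, adjusted p = 0.0571). Without the 16 libraries rich in olfactory bulb markers neither gene passed, at 0.32 for Hbb-bs (limma, adjusted p = 0.271) and 0.49 for Alas2 (limma, adjusted p = 0.113). Whether the call in some members and not in others reflects a difference between them was not tested.

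Fluoxetine libraries of WT mice were spread widely. In WT males Hbb-bs read 2390.4, 2629, 3387, 4062 and 5311 with fluoxetine, and 3 of 5 values lay above the vehicle range. In WT females it read 1848, 2578, 3487, 3518 and 5223, with 3 values above and 1 below the vehicle range. In Het females it read 2097, 2570.3, 2719, 2997 and 3009, all inside the vehicle range.

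By genotype and sex the counts were 0 of 5 in WT males (1.34% of all genes called), WT females (2.5%) and Het females (15.1%). For the averages over both sexes they were 0 of 5 in WT (8.2%) and Het mice (32.9%), where Alas2 differed by 0.39 ± 0.25 and 0.60 ± 0.25 (limma, adjusted p = 0.345 and 0.0551). In Het mice this average of Alas2 passed with edgeR, DESeq2 and quantile normalization (adjusted p = 0.0338, 0.0279 and 0.0383). By limma it passed without any 1 of 6 libraries, which were Het fluoxetine male replicates 3 and 5, Het fluoxetine female replicate 3, Het vehicle male replicate 5 and Het vehicle female replicates 1 and 2, and Hbb-bs passed without Het fluoxetine male replicate 3 or Het vehicle male replicate 5. Unadjusted p was under 0.05 for Hbb-bs (0.0434) and Alas2 (0.0185) in that average and for 0 of the 5 genes in the WT average. Of all 17807 genes, 7593 had an unadjusted p under 0.05 in the Het average and 4165 in the WT average. The interaction of fluoxetine with genotype called 0 of 5 genes by limma, edgeR and DESeq2 (1.7% of all genes by limma), with no unadjusted p under 0.05 and values from −0.07 to 0.21.

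In each treatment the Het average over both sexes was below the WT average for all 5 genes, and no difference passed the test. Under vehicle, Het males had 4 of 5 Alas2 values (37.7 to 61.2) below the lowest WT male (81.0), and the fifth (133) was above the highest WT male (128). The log2 difference of Alas2 was −0.68 ± 0.35 in vehicle males (limma, unadjusted p = 0.0583, adjusted p = 0.619). In vehicle females 3 of 5 Het values lay below the WT range of 93.9 to 116, and the difference was −0.30 ± 0.35. For Hbb-bs under vehicle, 3 of 5 Het males and 3 of 5 Het females lay below the WT range and 1 of each above it. Without the 16 libraries rich in olfactory bulb markers, only replicates 3 and 5 of the Het vehicle males remained. Het minus WT in vehicle males was then 0.17 for Hbb-bs, 0.15 for Hbb-bt, 0.11 for Hba-a1, 0.19 for Hba-a2 and −0.16 for Alas2. The vehicle averages over both sexes then lay between −0.26 (Alas2) and −0.08 (Hba-a1).

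Averaged over all 6 pairs of groups, Het minus WT was −0.34 ± 0.14 for Alas2, −0.28 ± 0.14 for Hbb-bt, −0.28 ± 0.13 for Hbb-bs, −0.24 ± 0.11 for Hba-a1 and −0.23 ± 0.11 for Hba-a2. With limma 0 of 5 were called (adjusted p = 0.231 to 0.348) where 1.54% of all genes were. By limma 4 of 5 had an unadjusted p under 0.05 (0.0198 for Alas2 to 0.0475 for Hbb-bt, with Hba-a2 at 0.0533). So did 2632 of all 17807 genes. The 5 genes varied together from library to library, so these 4 are not independent observations. With edgeR and DESeq2 0 of 5 were called as well. Under vehicle alone the average over both sexes ran from −0.21 (Hba-a1) to −0.49 (Alas2, limma, unadjusted p = 0.0541), under fluoxetine from −0.21 to −0.28 and under lithium from −0.15 to −0.39. In each of these 3 averages 0 of 5 were called by limma, edgeR and DESeq2 and 0 of 5 had an unadjusted p under 0.05. The shares of all genes called were 0.0562% under vehicle, 7.33% under fluoxetine and 0.0393% under lithium. Within single sexes 0 of 5 were called as well by limma, edgeR and DESeq2, none at an unadjusted p under 0.05. There the shares of all genes were 0.0168% (vehicle), 1.18% (fluoxetine) and 0.00562% (lithium) among males, and 0.0225%, 0.0393% and 0.0168% among females.

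Male and female mice did not separate. Male minus female, averaged over 6 pairs of groups, ran from −0.01 (Hbb-bt) to 0.06 (Hba-a1), with 95% intervals reaching at most −0.29 and 0.33. By limma, edgeR and DESeq2 0 of 5 genes were called (0.14% of all genes by limma), and none had an unadjusted p under 0.05. Alas2, which lies on the X chromosome, differed by 0.04 ± 0.14. The plot of differences sets these comparisons side by side with their intervals.

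**Figure D2:**
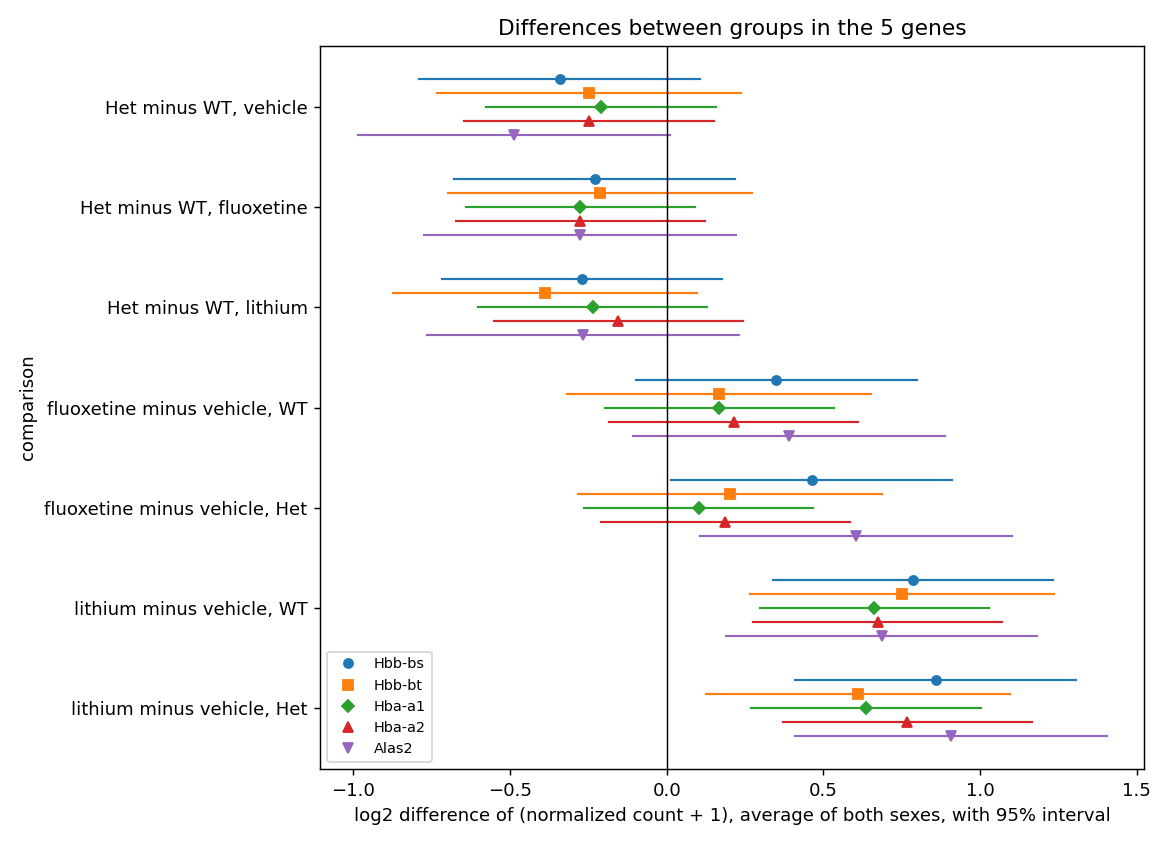
Log2 difference of (normalized count + 1) for each of the 5 genes, averaged over both sexes, with its 95% interval, for each drug against vehicle and for Het against WT. All lithium points lie above 0. Their intervals carry no test, since the genes were chosen on that contrast. All Het minus WT points lie below 0 with intervals that cross it.

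Within groups these genes were far more variable than others at their level. The SD of log2 values within groups was 0.52 for Hbb-bs, 0.56 for Hbb-bt, 0.43 for Hba-a1, 0.46 for Hba-a2 and 0.58 for Alas2. Genes within 1.5-fold of the same mean had median SDs of 0.09, 0.14, 0.10, 0.10 and 0.23. Of the 1850 genes near the level of Hbb-bs, 7 had a larger SD.

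The spread itself differed by group. For the sum of the 4 globin genes the highest library exceeded the lowest by 1.188-fold in WT vehicle females and 1.53-fold in WT vehicle males. In the other groups that ratio ran from 1.41 (Het fluoxetine females) to 4.09 (Het lithium males, 3459 to 14139 normalized counts).

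The 5 genes rose and fell together from library to library. In 7 of 12 groups 1 library was the highest for all 5 genes, and in 6 of 12 groups 1 library was the lowest for all 5. After group means were removed, Pearson's r over 60 libraries was 0.98 between Hba-a1 and Hba-a2 (Spearman's rho 0.96), 0.97 between Hbb-bs and Hba-a2 (rho 0.95) and 0.89 between Hbb-bs and Alas2 (rho 0.87). Over the 10 pairs of genes r ran from 0.81 to 0.98 and rho from 0.78 to 0.96, and each had a permutation p of 1e-05, the smallest that 100000 permutations can give (adjusted p = 1e-05 over 10 pairs). Without the 2 libraries farthest from the median, r ran from 0.77 to 0.97. Copies of a pair share sequence, so their correlation can include shared reads. The other 8 pairs shared no 31-base word.

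**Figure D3:**
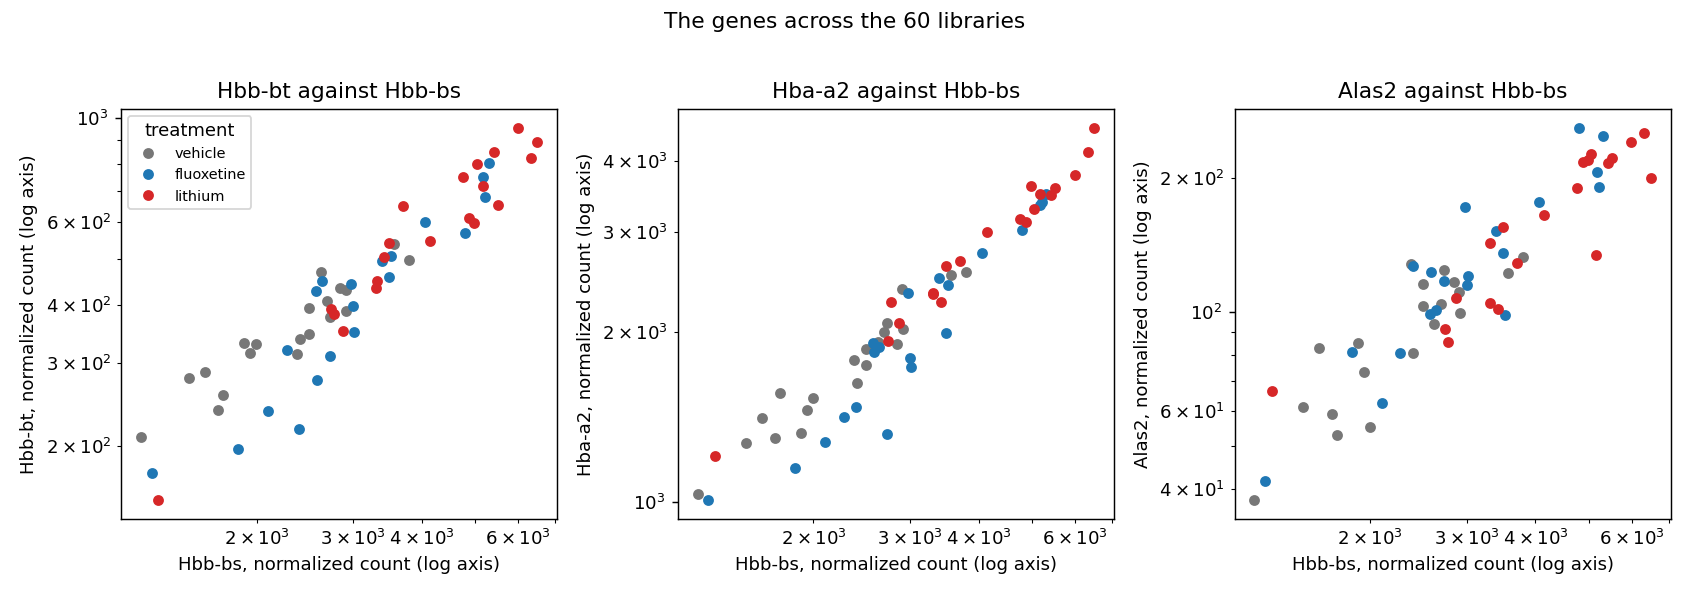
Hbb-bt, Hba-a2 and Alas2 against Hbb-bs in normalized counts (log axes), 1 point per library, vehicle in grey, fluoxetine in blue and lithium in red. The points of all treatments lie along 1 band in each panel, from Hbb-bs 1229 to 6490.2.

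Alas2 was the gene most like the globins. Over 60 libraries its r with the log2 sum of the 4 globin genes was 0.91 as measured and 0.89 after group means were removed, the highest of 17803 genes both times, against a median of all genes of 0.00. Beyond it, and with group means removed, the most similar were Tent5c (0.59), a poly(A) polymerase gene known from red cell precursors, then Ipo4 (0.57), Frmpd3 (0.56), Ephb1 (0.56), Rexo2 (0.55), Taf10 (0.54), 2810407A14Rik (0.54), Pycrl (0.53), Wrb (0.53) and the blood cell transcription factor gene Ikzf1 (0.53). As measured, with treatment differences left in, the list was Syngr3 (0.65), Atp5j2 (0.62), Emc3, Atp5g1, Gm49593, Rbp4, Mrpl12, Atp6v0b, Surf4 and Cox14 (0.59). These 2 lists of 10 had no gene in common.

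For Alas2 itself, with group means removed, the most similar genes other than the globins were Gm48701 (0.54), Rgs19 (0.53), Slc4a1 (0.53), Rexo2 (0.50) and Tent5c (0.50). As measured they were Tagap1 (0.56), Tspan13 (0.56), Cx3cl1 (0.54), Otub2 (0.53) and Gng3 (0.53). The values of r describe these libraries only. The most opposite to the globin sum was Tbp (−0.60 with group means removed).

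Neither Slc4a1 nor Tent5c, whose r with the globin sum was 0.505 and 0.59 with group means removed, was called with lithium. Slc4a1 stood at 6.44 ± 4.03 normalized counts with vehicle, 7.75 ± 6.10 with fluoxetine and 10.1 ± 7.44 with lithium (SD, n = 20 each), and lithium minus vehicle over 4 pairs was 0.34 ± 0.32 (limma, adjusted p = 0.491). Tent5c stood at 71.9 ± 12.4, 74.1 ± 19.98 and 75.3 ± 16.3, with a lithium difference of 0.05 ± 0.10 (limma, adjusted p = 0.792). Within the list of 20 red cell markers r with the globin sum ran from −0.29 to 0.59 with a median of 0.13, and Slc25a39, Car2 and Bpgm reached 0.46, 0.44 and 0.37. Genes of the red cell membrane and its skeleton other than Slc4a1 were lower. Gypc gave 0.10, Ermap 0.05, Sptb 0.08, Ank1 −0.02 and Epb41 −0.26. Markers of vessels and meninges had medians no lower. These were 0.17 for endothelial (−0.11 to 0.44), 0.15 for mural (0.02 to 0.48) and 0.18 for leptomeningeal genes (−0.11 to 0.40).

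Scores of whole lists, each the mean of its genes' centered log2 values, were set against Hbb-bs over 60 libraries after group means were removed, with 9 relations adjusted together. The red cell score gave r = 0.57 and rho = 0.54 (permutation p = 0.00022 and 0.00026, adjusted p = 0.00198 and 0.00234), and r = 0.50 without the 2 farthest libraries. Gene by gene that list had a median r of 0.13 with the globin sum, below the 0.17 of the endothelial list. The score therefore does not describe most of its genes singly. The endothelial score gave r = 0.19 and rho = 0.22 (permutation p = 0.187 and 0.134, adjusted p = 0.619 and 0.526), and r = 0.12 without the 2 farthest libraries. The score of the whole olfactory bulb list gave r = −0.09 and rho = −0.14 (permutation p = 0.565 and 0.322, adjusted p = 0.847 and 0.526), and r = −0.18 without the 2 farthest libraries. It is not the narrower score that picked the 16 libraries left out elsewhere. The number of reads gave r = −0.01 and rho = −0.02 (permutation p = 0.949 and 0.874, adjusted p = 0.979 and 0.967), and r = −0.06 without them.

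Proportions between the genes were steadier than their levels. Hbb-bt made up 12.4% ± 1.53 (SD, n = 60) of the counts of both beta genes, with 13.3% ± 1.26 in vehicle, 11.7% ± 1.63 in fluoxetine and 12.3% ± 1.26 in lithium libraries (SD, n = 20 each). Hba-a1 made up 41.5% ± 1.76 (SD, n = 60) of the counts of both alpha genes, with 42.3%, 41.2% and 41.1% in the same order. Alpha counts per 100 beta counts averaged 113 with vehicle (98.4 to 139), 98.5 with fluoxetine (78.1 to 126) and 105 with lithium (92.5 to 134). Alas2 amounted to 15.8 ± 2.92, 18.5 ± 3.57 and 16.4 ± 2.67 counts per 1000 globin counts (SD, n = 20 each).

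The ranges of all these proportions overlapped between treatments. They depend on how reads were divided between copies, apart from alpha against beta and Alas2 against the globin sum. The alpha to beta ratio varied most in Het libraries, from 78.1 to 139, against 87.5 to 120 in WT libraries. These proportions are a description and were not tested.

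**Figure D4:**
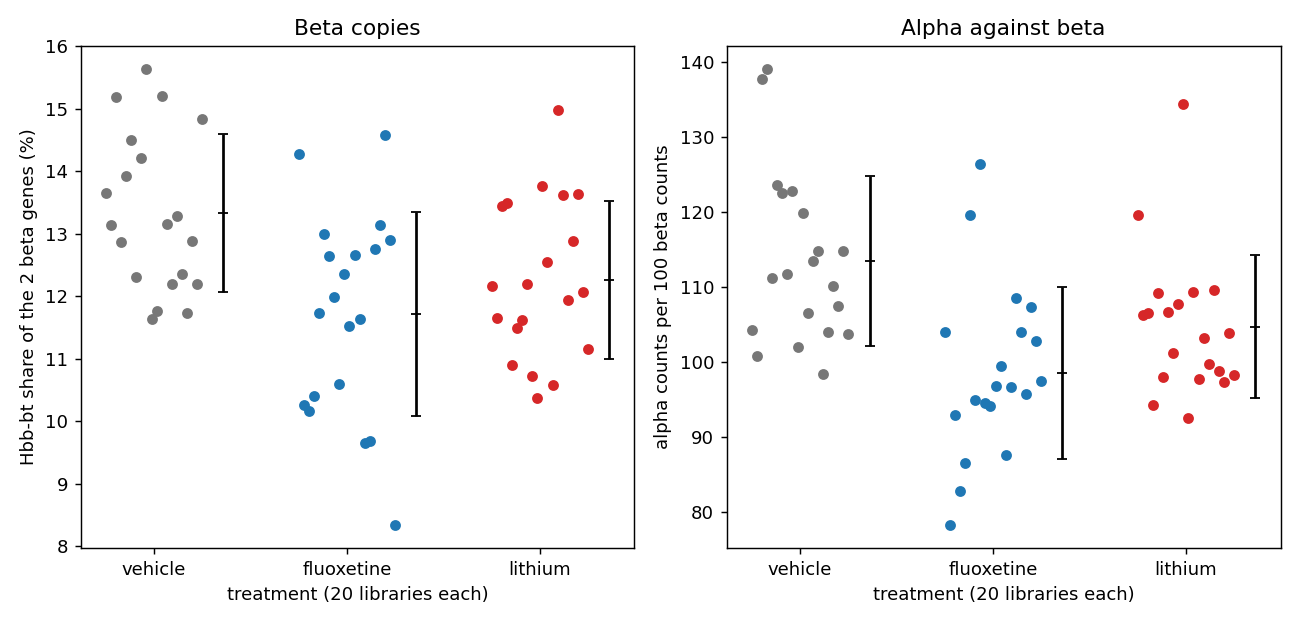
Hbb-bt as a percentage of both beta genes, and alpha counts per 100 beta counts, by treatment, 1 point per library (20 each), with mean ± SD in black beside the points. The ranges overlap in both panels, and alpha counts per 100 beta counts average 113, 98.5 and 105 with vehicle, fluoxetine and lithium.

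None of the other globin genes was called with lithium. Of 9 looked up, 3 had a row: the alpha-like gene Hbq1a (5.66 normalized counts on average), neuroglobin Ngb (66.5), an oxygen-binding protein of neurons, and cytoglobin Cygb (983). With lithium, averaged over 4 pairs, they differed by −0.07 ± 0.25, 0.04 ± 0.12 and −0.05 ± 0.05, and 0 of 3 were called by limma, none with an unadjusted p under 0.05. Of all genes 19.1% were called there and 33.6% with fluoxetine. With fluoxetine Ngb rose by 0.31 ± 0.12 (limma, adjusted p = 0.0483) and Cygb by 0.13 ± 0.05 (limma, adjusted p = 0.0376), and Hbq1a differed by −0.20 ± 0.25. The embryonic genes Hbb-y, Hbb-bh1, Hbb-bh2 and Hba-x had no row in the table used here.

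The other genes of heme synthesis, which every cell needs for its mitochondrial enzymes, differed little under lithium. With lithium 1 of 12 rose, Urod (0.12 ± 0.03, limma, adjusted p = 0.00676), and 0 fell, beside 19.1% of all genes called. The median of the list was 0.03 against 0.00 for all genes, and Alas1, the form of the first enzyme used outside red cells, differed by 0.04 ± 0.02 (limma, adjusted p = 0.248). With fluoxetine 4 of 12 rose, among them Urod (0.13 ± 0.03), Fech (0.08 ± 0.02) and Slc25a38 (0.08 ± 0.03). Abcb6 (−0.16 ± 0.03) fell, and the list median was 0.03. These 5 of 12 stand beside 33.6% of all genes called in that comparison. Alad, Uros, Cpox, Ppox and Abcb10 lay between −0.13 and 0.06 under both drugs. In Het minus WT averaged over 6 pairs 0 of 12 were called by limma, 3 (Slc25a38, Alad and Fech) had an unadjusted p under 0.05, and the median was 0.01. Of all 17807 genes 1.54% were called there, and 2632 had an unadjusted p under 0.05.

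Among genes that break down or take up heme, Hmox1, the inducible heme oxygenase, rose with lithium by 0.45 ± 0.07 (fold 1.36, limma, adjusted p = 2.4e-06) and with fluoxetine by 0.21 ± 0.07 (limma, adjusted p = 0.00945). Blvra, which reduces biliverdin, rose by 0.12 ± 0.04 with lithium, and it was the 1 gene of these 10 called in Het minus WT (0.14 ± 0.03, limma, adjusted p = 0.0137). In all, 2 of 10 rose and 0 fell with lithium, where 19.1% of all genes were called. With fluoxetine 5 rose and 3 fell, led by Flvcr1, a heme exporter (−0.28 ± 0.04), and Lrp1 (−0.22 ± 0.05). That comparison called 33.6% of all genes.

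Iron handling genes moved in both directions, beside 19.1% of all genes called with lithium and 33.6% with fluoxetine. With lithium Ftl1, the ferritin light chain, rose by 0.13 ± 0.04, and the iron exporter Slc40a1 (−0.21 ± 0.06) and the reductase Steap3 (−0.24 ± 0.08) fell, 3 of 14 in all. With fluoxetine 3 rose and 4 fell, among them the transferrin receptor Tfrc (0.23 ± 0.04), Slc40a1 (−0.30 ± 0.06), Steap3 (−0.30 ± 0.08) and Aco1 (−0.12 ± 0.03).

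Among the 20 red cell markers 5 rose with lithium and 0 fell, where 19.1% of all genes were called. The list median was 0.06. The 5 genes, chosen on this contrast, had a median of 0.72. Markers that rose included Slc25a39 (0.17 ± 0.03), a mitochondrial glutathione carrier, Prdx2 (0.13 ± 0.03) and Mkrn1 (0.07 ± 0.02), all of them abundant in brain. With fluoxetine 4 rose, Bnip3l, Mkrn1, Prdx2 and Ube2l6 (0.11 to 0.18), and 0 fell, beside 33.6% of all genes called. Summed levels of the list were 37485 to 42387 normalized counts with vehicle, 39834 to 43764 with fluoxetine and 39721 to 43179 with lithium. Among 8 erythroid regulators Epor, the erythropoietin receptor, rose with lithium by 0.46 ± 0.09 (limma, adjusted p = 0.000191), and Lmo2 fell with lithium (−0.15 ± 0.04) and with fluoxetine (−0.24 ± 0.04).

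Markers of other blood cells were also looked up, beside 19.1% of all genes called with lithium and 33.6% with fluoxetine. The 3 neutrophil markers with a row of 11 looked up summed to 136 to 201 normalized counts with vehicle, 141 to 207 with fluoxetine and 127 to 229 with lithium, and S100a8, S100a9 and Ngp had no row in the table used here. Of these only Lcn2, which reactive glia also express, rose, by 0.87 ± 0.22 with lithium and 1.29 ± 0.22 with fluoxetine (limma, adjusted p = 0.00414 and 1.1e-05). The 5 platelet markers with a row of 8 looked up summed to 79.9 to 110.1, 72.0 to 123 and 75.4 to 122 in the same order of treatments, and 0 of 5 were called under either drug by limma. At an unadjusted p under 0.05 there was 1, Gp5 with fluoxetine (0.41 ± 0.18). Of all 17807 genes, 7706 were under that threshold with fluoxetine and 5739 with lithium. Of 4 lymphocyte markers with a row, of 12 looked up, 0 were called under either drug by limma, with Cd79b (−0.39 ± 0.17) at an unadjusted p under 0.05 with lithium. Their summed levels were 242 to 498 normalized counts with vehicle, 236 to 499 with fluoxetine and 258 to 530.5 with lithium, higher than those of the neutrophil and platelet lists. Their part in the globin values was not tested.

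Markers of vessels and meninges were counted against 19.1% of all genes called with lithium and 33.6% with fluoxetine. With lithium 1 of 18 endothelial markers rose, the glucose transporter Slc2a1 (0.24 ± 0.05), and 6 fell, among them Tek (−0.30 ± 0.06), Slco1a4 (−0.20 ± 0.05) and Ptprb (−0.20 ± 0.05), with a list median of −0.12. Among mural cell markers Pdgfrb (−0.21 ± 0.05) fell, 1 of 10. Among leptomeningeal markers 3 of 12 fell, Igf2, Ranbp3l and Aebp1 (−0.24 to −0.31), and 0 rose. With fluoxetine 1 endothelial marker rose and 7 fell, and 1 leptomeningeal marker rose and 5 fell. Summed endothelial levels overlapped almost fully, at 15685 to 21297 normalized counts with vehicle, 15228 to 20893 with fluoxetine and 15198 to 21423 with lithium. The plot of gene lists shows the 5 genes beside these groups.

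**Figure D5:**
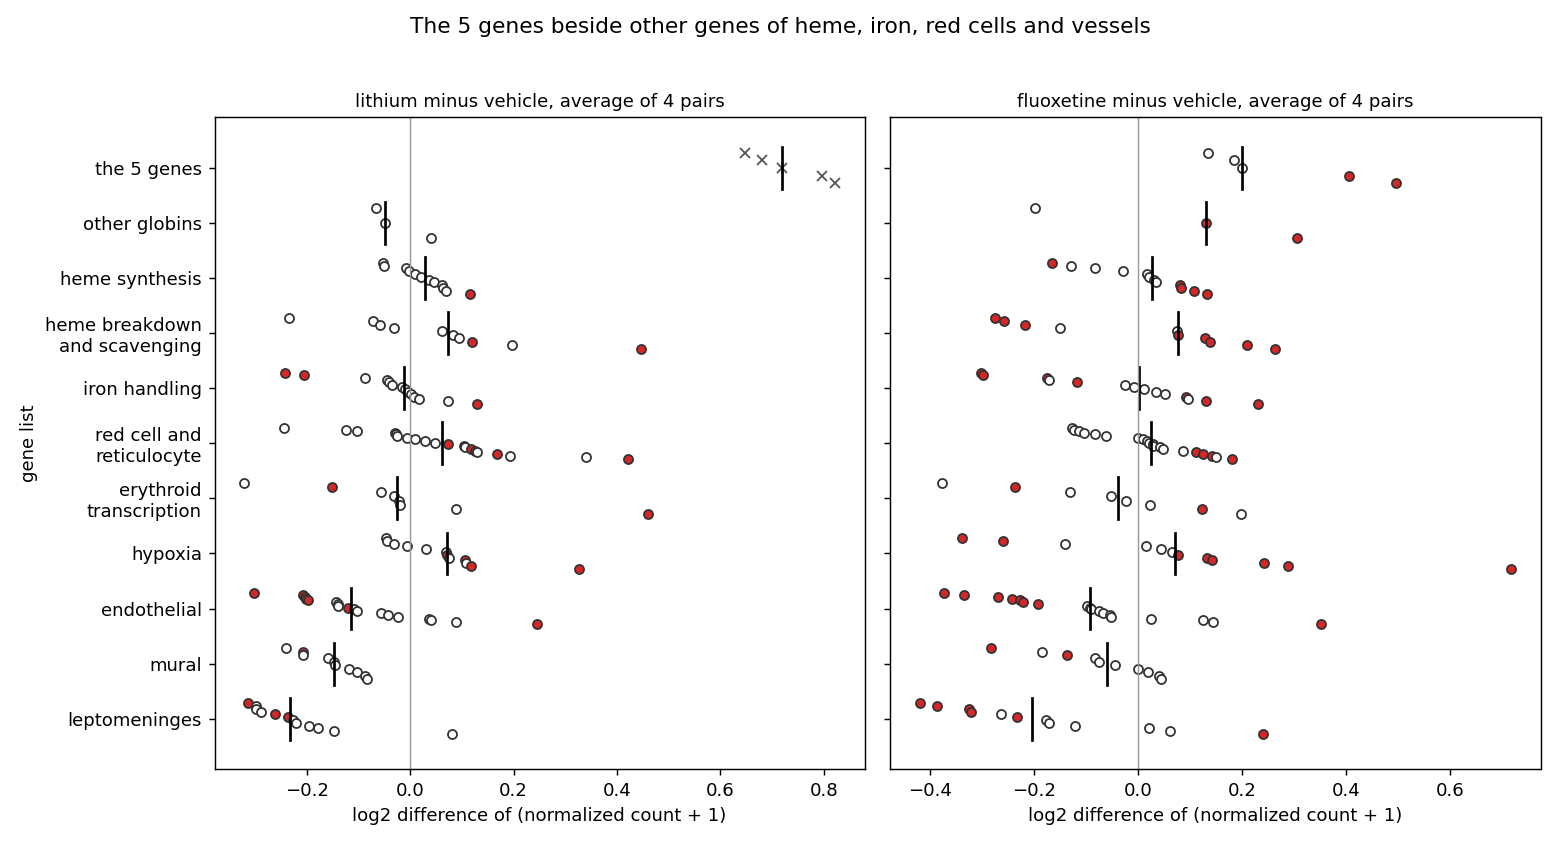
Log2 difference of (normalized count + 1) for every gene of each list, lithium (left) and fluoxetine (right) against vehicle, averaged over 4 pairs of groups. Filled red points passed limma at an adjusted p under 0.05, open points did not, and crosses are the 5 genes under lithium (not tested). Bars are list medians. With lithium they are 0.72 for the 5 genes, which were chosen on this contrast, 0.03 for heme synthesis and −0.12 for endothelial markers.

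Of 14 genes that respond to low oxygen, 12 had a row. Their counts stand beside 19.1% of all genes called with lithium and 33.6% with fluoxetine. With lithium 4 of 12 rose, Pgk1 (0.12 ± 0.03), Hif3a (0.33 ± 0.10), Slc2a3 (0.07 ± 0.02) and Ldha (0.11 ± 0.04), and 0 fell. With fluoxetine 6 rose and 2 fell, led by Hif3a (0.72 ± 0.10) and Vegfa (−0.26 ± 0.03). Summed levels were 32130.4 to 39737 normalized counts with vehicle, 35527 to 41213 with fluoxetine and 34294 to 41025 with lithium.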

How the data were processed

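Per the submitters' processing notes the reads were handled with Salmon 0.11.2, R 3.6.0 and DESeq2 1.19.11 on GRCm38; the sources used here give neither the role of each tool nor the annotation. The authors deposited 1 table of normalized signal, with a row for each of 18088 genes and a column for each of 60 libraries. Dividing each column by its smallest step returned whole reads for 100% of values (tolerance 0.001), so the deposited signal was reads divided by 1 size factor per library (0.818 to 1.0723, relative). It is called normalized count here. GENCODE M21 named 18077 genes.

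Values were taken to log2(value + 1), which understates changes of low genes. The test covered 17807 genes that reached 10 in 5 or more libraries. In R 4.3.3, limma 3.58.1 with an intensity trend fitted 1 mean per group over 60 libraries (48 residual degrees of freedom). Tests were two-sided, and a gene was called at a Benjamini-Hochberg adjusted p under 0.05 within its comparison. The design had named edgeR for raw counts, and as the values were normalized limma was the test used. The design's rule named the 5 genes throughout, every measured gene of the other globins and heme synthesis, up to 4 called genes with the smallest p from each other list, and the genes most like the globin sum (10) and Alas2 (5). Some genes that this rule names are not reported here. Alternatives were edgeR 4.0.16 and DESeq2 1.42.0 on the recovered reads, a pseudocount of 10, no filter, quantile normalization, fits of only the groups compared, a replicate block, summed copies and each library left out. Averages over 6 or 4 pairs of groups and the omission of 16 libraries with the highest scores of Sp8, Eomes, Cdhr1, Th and Doc2g were added after seeing the data. The 5 genes and the lists were chosen with earlier results of these data known. The limma script was tested on simulated data. No 2 replicates were the same library: their chi-square divided by its degrees of freedom was at least 3.95 in each of 120 pairs. Promoters came from RefSeq.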

Additional observations from a re-analysis of the deposited data

Results flagged for a closer look

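In 60 combinations of gene and group, each of 5 libraries, the gap of the highest or lowest library to its neighbor was set against Dixon's critical value of 0.71, which chance exceeds in about 1 of 20 groups. Both flagged values were high ones. Alas2 in Het vehicle male replicate 5 was 132.8 normalized counts, against 37.7 to 61.2 in the other 4 libraries. That library was also the highest of its group for the 4 globin genes. Hba-a2 in WT vehicle female replicate 1 was 2373.2 normalized counts, against 1862 to 1999 in the other 4 libraries. That library was also the highest of its group for Hbb-bs (2906) and Hba-a1.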

How the results depend on the processing

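Counts of called members and lithium medians kept within their limits in all planned settings other than those named here. Fluoxetine against vehicle as the Het average over both sexes gave 1 called member with quantile normalization, 1 with edgeR and 1 with DESeq2 in place of 0, each time Alas2. In Het males the count of 1 became 0 with only the groups compared and 0 without the 16 libraries rich in olfactory bulb markers. The average over 4 pairs went from 2 to 0 without those 16 libraries, and the lithium median in Het males from 0.90 to 0.24, where fewer libraries remained and the cause was not tested. Leaving out 1 library at a time gave counts of 0 to 2 for fluoxetine in Het males, 0 to 2 for the Het average and 1 to 2 for the average over 4 pairs, and 0 to 0 for the remaining counts. Lithium medians then ran from 0.74 to 1.189 in Het males, 0.52 to 0.78 in Het females, 0.68 to 0.90 in WT males, 0.50 to 0.84 in WT females, 0.63 to 0.79 in WT, 0.69 to 0.91 in Het mice and 0.68 to 0.79 over 4 pairs. Whether the replicate numbers pair the mice is not given. Same-numbered libraries had a mean correlation of deviations of 0.0025. At most 4 of 5 pairs exceeded 0.1, for lithium against vehicle in Het males, where r ran from −0.09 to 0.20. With the replicate number as a block the counts were the same (1 in Het males and 2 over 4 pairs with fluoxetine, 0 elsewhere). Depth was ample for the globin genes, whereas Slc4a1 and Hbq1a, at means of 8.09 and 5.66 normalized counts, are too low for small differences to be seen. Read division between near-identical copies, litters and blood content of the tissue are unknown.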
